A study of Mus musculus with 18 samples.

Results

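Coding joins with 1 to 3 bp of microhomology were examined on a recombination substrate in 12 junction libraries. The joins were chosen by position and read overlap: the prey mapped to the substrate on its plus strand between positions 2800 and 3813, and the bait and prey alignments shared 1, 2 or 3 bases of the read. This gave 2033 joins out of 30937 junctions in all libraries, and out of 6903 coding joins in the same window, and these 2033 are called homology joins below. Because the overlap itself chose these joins, their share of coding joins and the length of their homology are given as description without a test.

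The libraries came from v-abl-transformed B cells of 129-strain mice, precursor B cells kept growing by a viral Abl kinase, with a stably integrated pMX-INV substrate. RAG cuts this substrate once the kinase is inhibited, and HTGTS, a translocation sequencing method, starts from a primer beside the break (the bait) and reads into the sequence that was joined to it (the prey). The 4 genotypes were CtIP A/A DNA-PKcs -/- (the double mutant), DNA-PKcs -/-, CtIP A/A and wild type (WT), of which the first 2 lack DNA-PKcs, and the series asks about a conserved ATM/ATR phosphorylation site of CtIP. For each genotype 2 libraries came from cells held in G2 (STI571 for 24 h, then 10 µM RO3306 for 48 h) and 1 from cells held in G1 (3 µM STI571 for 48 or 72 h). STI571 inhibits the Abl kinase and RO3306 inhibits CDK1, and all cells received STI571 at 3 µM. Genotype is taken from the labels, because junctions measure neither protein. No label names separate cultures for the replicates, so a p-value here reflects the spread between libraries, which may be technical, and genotype cannot be told apart from cell line.

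RAG cuts between a recombination signal, which begins with a heptamer, and the coding sequence beside it, and leaves each coding end sealed as a hairpin. DNA-PKcs, with the nuclease Artemis, opens the hairpins, and an opening away from the tip leaves a short self-complementary overhang whose copied bases are called P nucleotides. Classical end joining often ligates such ends with little or no homology, whereas alternative end joining uses ends cut back by nucleases, a process that CtIP promotes, and often pairs a few matching bases. Those matching bases appear in a sequenced join as letters that could have come from either side.

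The bases at the ends decide what counts as homology here, so they are shown first. The bait heptamer occupies substrate positions 1936 to 1942 and the partner heptamer 2806 to 2812, and coding sequence begins at the next base of each.
Bait side, last 3 coding bases as read: CTG
Bait side, the heptamer that follows them as read: CACAGTG
Partner side, the heptamer before the coding end: CACTGTG
Partner side, first 3 coding bases: CAG
The first 2 heptamer bases next to each coding end are the same letters as the P nucleotides that end would give, and the third differs. A read base 1 or 2 bases past a coding end can therefore be a signal base or a P nucleotide, and these cannot be told apart. Where such a base lies in the homology, it also matches the other side and can have come from there. A direct ligation of 2 complete coding ends also reads as 4 bp of homology (bait end 1941, prey position 2811), which places it outside the joins described here: 30 such joins were recorded, 11 in DNA-PKcs -/- libraries and 19 in libraries with DNA-PKcs.

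The most used joins show the forms that the class takes. The 10 pairs of bait end and prey position with the highest mean share over the 12 libraries were named by rule, and 5 of them are shown with their homology in capitals and the adjoining read bases in lower case.
Bait end 1942 to prey position 2815, homology of 2 bp: ctGCcta
Bait end 1946 to prey position 2810, homology of 2 bp: acGTgca
Bait end 1942 to prey position 2825, homology of 1 bp: ctgCcgc
Bait end 1946 to prey position 2823, homology of 1 bp: acgTtcc
Bait end 1939 to prey position 2819, homology of 3 bp: gcACAat
The join of 1942 to 2815 occurred in all 12 libraries, as did the join of 1942 to 2825. In the first of these the bait alignment runs 1 base past the coding end and the partner end has lost 2 bp, so 1 bp of its homology lies on coding sequence. The join of 1946 to 2823 lies wholly on coding sequence, with 3 bp lost from the bait and 10 bp from the partner. In the join of 1939 to 2819 the bait alignment runs 4 bases into the heptamer. The last 3 of these are the homology ACA, which also matches the partner coding sequence. Once the heptamer bases are set aside no homology is left, and a gap of 1 base remains. Of the 10 pairs, 6 reach into a heptamer, and the other 5 pairs join 1941 to 2820, 1945 to 2820, 1944 to 2823, 1947 to 2812, and 1945 to the first partner coding base.

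These 10 pairs held 113 joins. A homology join has at most 2 lines in a library, so ranking by mean share favours pairs seen in the small libraries. No shares of these pairs are compared between groups. Outside them the class was diverse. It held 1032 distinct pairs of positions, of which 641 were seen in a single line, 647 in 1 library, 49 in 6 or more libraries and 2 in all 12.

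Nearly all coding-join lines of a library are distinct joins, and this bears on every share below. No 2 coding-join lines of a library had the same bait end, prey position, gap and read position. Only 32 of the 2033 homology-join lines repeated the bait end, prey position and gap of another. No homology join had more than 2 lines in a library. Other coding joins can have more: the direct ligation of complete coding ends had 19 lines in the 6 libraries with DNA-PKcs. How duplicates were treated is not given. A homology join that formed many times in a culture may therefore count about as much as a join that formed a single time. With both deletions at 20 bp or less, 89 different joins with 1 to 3 bp of homology are possible on this sequence. Of these, the double-mutant G1 library recorded 70 and the WT G2 replicate 2 library 14, and together the 12 libraries recorded 87. With both deletions at 60 bp or less, 679 are possible and 476 were recorded in all, 467 of them in the 6 DNA-PKcs -/- libraries and 113 in the 6 libraries with DNA-PKcs. The recorded share of the 89 ran from 15.7% to 78.7% of them per library, and a library near the top of that range has few short joins left to add as it is read more deeply.

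Depth differed with genotype and with phase. The 6 DNA-PKcs -/- libraries held 330 to 1471 coding joins and 134 to 543 homology joins each, and the 6 libraries with DNA-PKcs held 166 to 831 and 23 to 121. In each genotype the G1 library held more coding joins than either G2 library. In the smallest library, with 23 homology joins, a count of 0 allows a share of up to 13.04%. In the largest, with 543, it allows up to 0.552%. These intervals and floors describe counting error only, since amplified reads that carry no molecular identifier need not be separate molecules.

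Homology of 1 to 3 bp made up a larger share of coding joins in the libraries labelled DNA-PKcs -/-. In the double mutant it made up 36.9% of coding joins in G1 and 40.6% and 27.7% in G2. In DNA-PKcs -/- cells it made up 36.7% in G1 and 37.4% and 45.3% in G2. In CtIP A/A cells it made up 12.6% in G1 and 13.3% and 15.6% in G2, and in WT cells 14.6% in G1 and 16.7% and 13.9% in G2. All 6 DNA-PKcs -/- values lie above all 6 values with DNA-PKcs, and the widest 95% Wilson intervals run from 35.4% to 46.0% without DNA-PKcs (double mutant, G2 replicate 1) and from 9.41% to 19.9% with it (WT, G2 replicate 2). The equally weighted mean over the 4 strata of CtIP genotype and phase was 37.3% for DNA-PKcs -/- libraries and 14.2% for the others.

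The gap was smaller among joins without inserted bases. Coding joins also include 2599 joins with inserted bases, of which 1070 lie in DNA-PKcs -/- libraries and 1529 in libraries with DNA-PKcs. Among joins without insertion, homology of 1 to 3 bp made up 46.4%, 51.7% and 41.4% in the double mutant and 48.5%, 47.8% and 54.2% in DNA-PKcs -/- cells, each as G1 and then the G2 replicates. The same shares were 43.1%, 41.7% and 46.9% in CtIP A/A cells and 45.8%, 47.5% and 41.1% in WT cells. These ranges overlap, and the stratum means were 48.1% without DNA-PKcs and 44.4% with it.

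**Figure D1:**
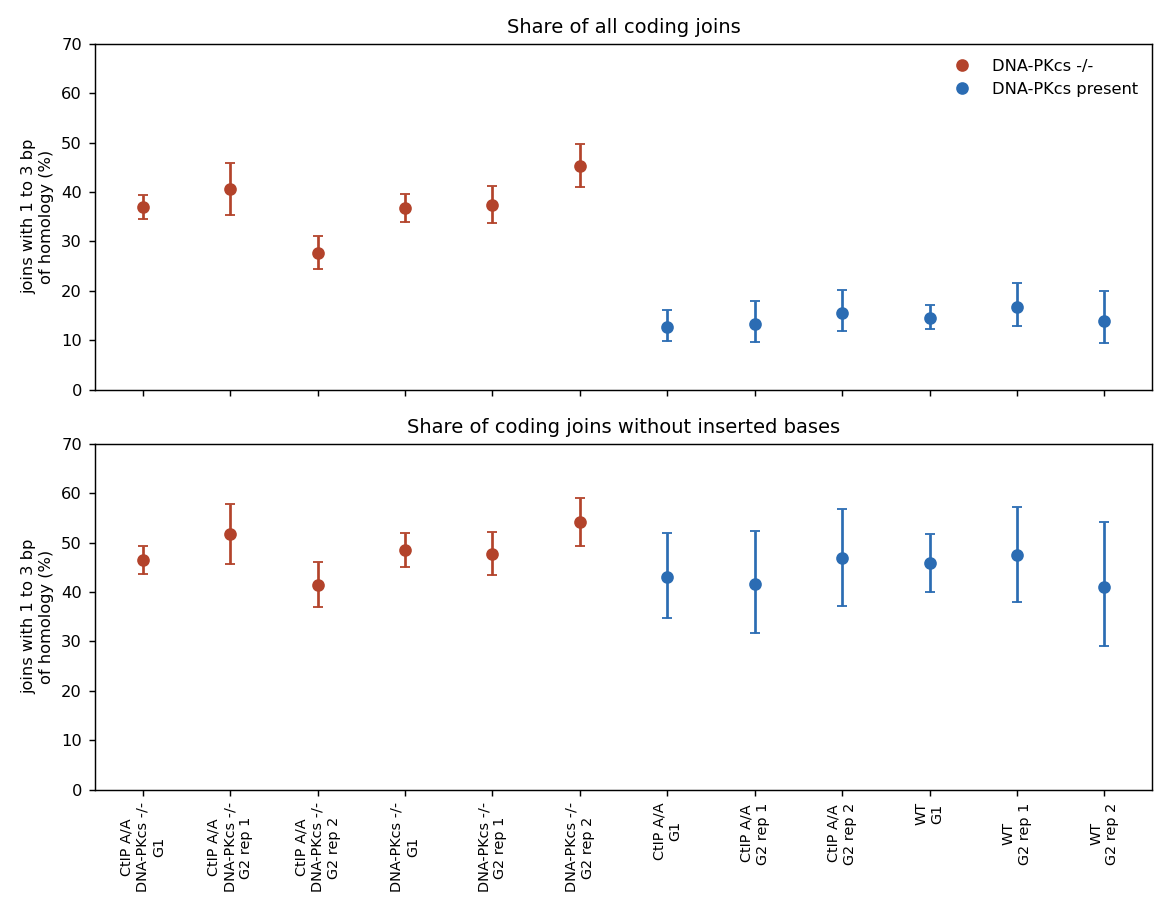
Share of joins with 1 to 3 bp of homology in each library, in percent of all coding joins (upper panel) and of coding joins without inserted bases (lower panel), with 95% Wilson intervals. The DNA-PKcs -/- libraries sit at 27.7% to 45.3% in the upper panel, above the 12.6% to 16.7% of libraries with DNA-PKcs, and the groups overlap in the lower panel.

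Most of the homologies were 1 base long. A length of 1 bp was found in 1282 joins, 2 bp in 552 and 3 bp in 199. As stratum means, 63.6%, 27.4% and 8.98% of the class had 1, 2 and 3 bp without DNA-PKcs, and 60%, 25.9% and 14.1% with it. The share with 3 bp ranged from 5.38% to 10.9% over the DNA-PKcs -/- libraries and from 10.7% to 18.9% over the others, so the ranges overlap slightly. In some of these joins an alignment runs past the coding sequence. Pooled, 8.38%, 9.64% and 12.8% of joins with 1, 2 and 3 bp reached into a heptamer without DNA-PKcs. With it the values were 26.0%, 32.9% and 46.5%, the last being 20 of 43 joins (not tested). Just outside the limits that define the class were 2048 direct joins with neither overlap nor gap and 110 joins with 4 bp, and 113 joins had 5 bp or more.

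The sequence itself offers many short matches, which gives a yardstick for these lengths. Among all 441 pairs of ends with deletions of 0 to 20 bp on each side, 39.0% share 1 to 3 bp at the point of joining and 60.8% share none. Observed joins without insertion in that range had 1 to 3 bp in 40.7% ± 5.42 in DNA-PKcs -/- libraries and 41.3% ± 3.18 in libraries with DNA-PKcs (SD, n = 6 each). Among the 3721 pairs with deletions of up to 60 bp, 42.0% share 1 to 3 bp, and observed joins did so in 46.7% ± 4.43 and 43.5% ± 2.83. Several pairs of ends can give the same product, however, and the tables hold about 1 line per product. Counted by distinct product, 27.4% of the 325 products within 20 bp and 27.7% of the 2452 within 60 bp carry 1 to 3 bp, which is below every one of these observed means. Which yardstick applies depends on how often each product formed, which the tables do not hold, so the comparison is descriptive.

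**Figure D2:**
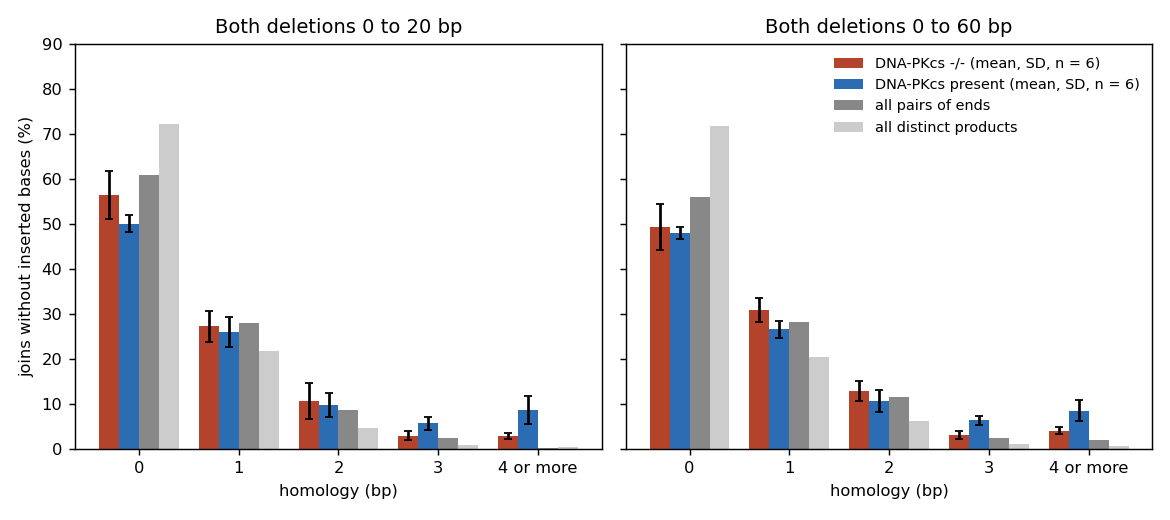
Joins without inserted bases by length of homology in bp, in percent, for deletions of 0 to 20 bp at both ends (left) and 0 to 60 bp (right). Red and blue bars are means with SD over 6 libraries without and 6 with DNA-PKcs. Dark grey bars count every pair of ends on the substrate and light grey bars every distinct product, and the observed 1 bp and 2 bp bars lie above the light grey bars in both panels. The 4 or more class includes the direct ligation of 2 complete coding ends.

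Homology joins in DNA-PKcs -/- libraries had lost more sequence from both coding ends. The median deletion from the bait end was 41, 25.5 and 20 bp in the double mutant and 47, 40 and 21 bp in DNA-PKcs -/- cells (G1, then the G2 replicates). It was 3, 3 and 5 bp in CtIP A/A cells and 6, 3 and 3 bp in WT cells. The shortest median without DNA-PKcs, 20 bp, was thus above the longest with it, 6 bp. Averaged over strata the bait deletion was longer by 31.3 bp in DNA-PKcs -/- libraries (95% interval 16.5 to 39.7; p = 0.0139 and adjusted p = 0.0154 over 10 measures, two-sided exact permutation within strata). That p is the smallest the design allows, and 9 of the 10 measures reached it. The measures overlap in what they count, so these are not 9 separate results.

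At the partner end the median deletion was 32, 20.5 and 17 bp in the double mutant and 26, 24 and 18 bp in DNA-PKcs -/- cells. It was 8, 7 and 8 bp in CtIP A/A cells and 11, 6 and 7 bp in WT cells. The groups did not overlap, and the difference was 16.2 bp (interval 10.0 to 21.7, adjusted p = 0.0154, exact permutation). Longer deletions without DNA-PKcs are not particular to homology joins. Direct joins had pooled median bait deletions of 24 bp without DNA-PKcs and 3 bp with it. Their pooled median partner deletions were 19 and 7 bp (not tested).

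Deletions over 20 bp gave the same order as shares of joins. As stratum means they held 65.4% of homology joins at the bait end in DNA-PKcs -/- libraries, against 19.3% in libraries with DNA-PKcs, a difference of 46.1 points (28.5 to 56.1). At the partner end they held 54.1% against 19.7%, a difference of 34.3 points (20.9 to 44.7). Both had adjusted p = 0.0154 in the exact permutation test, in all 4 strata the DNA-PKcs -/- value was the higher, and no library of one status overlapped the other. Both ends had lost over 20 bp in 42.1% of homology joins in DNA-PKcs -/- libraries, against 10.3% in the others (means over strata, not tested). Partner deletions over 100 bp did not follow this order: they occurred in 108 homology joins without DNA-PKcs, or 6.32%, and in 23 with it, or 7.10% (pooled, not tested). The longest was 965 bp without DNA-PKcs and 729 bp with it.

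Depth moves with this result, and its part in the result was not tested over all libraries. One pair of libraries had like numbers of homology joins, 134 in the double-mutant G2 replicate 1 library and 121 in the WT G1 library, and of joins without insertion, 259 and 264. They differ in coding joins, 330 and 831, and also in CtIP genotype and phase, so they are set side by side only as values. Bait deletions over 20 bp made up 57.5% in the first and 21.5% in the second, partner deletions over 20 bp 50% and 25.6%, and reach into a heptamer 11.2% and 26.4%. Within sequencing runs 1 and 2 the DNA-PKcs difference was 52.4 and 39.7 points for bait deletions over 20 bp, 37.0 and 31.2 points for partner deletions over 20 bp, and -26.7 and -19.9 points for reach into a heptamer. Within DNA-PKcs -/- cells the G2 replicate 2 libraries had the shortest median deletions at both ends in either CtIP genotype.

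**Figure D3:**
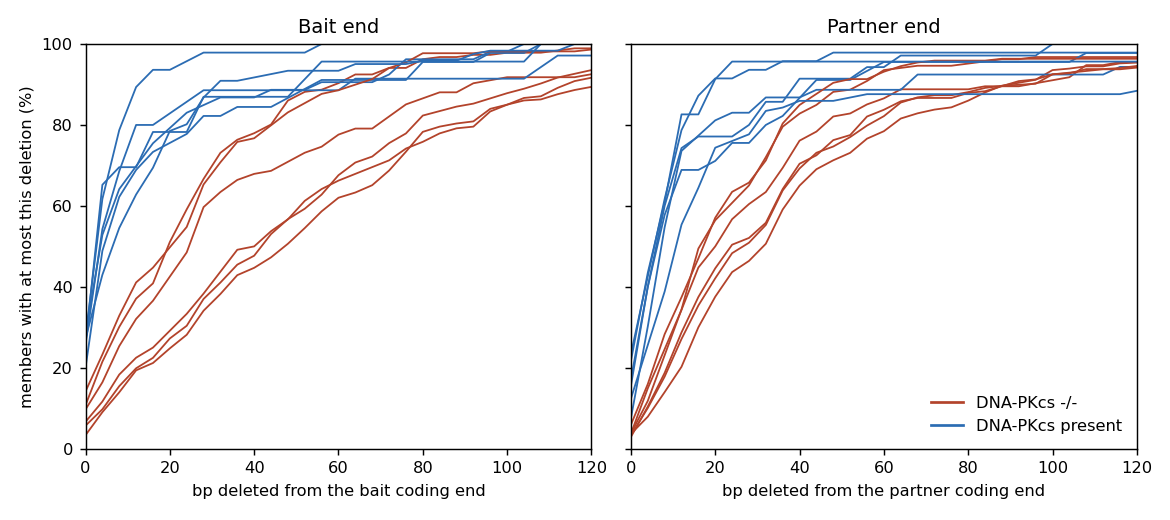
Share of homology joins, in percent, that had lost at most the number of bp on the x axis from the bait coding end (left) or the partner coding end (right), 1 line per library. The 6 red lines of DNA-PKcs -/- libraries run below and to the right of the 6 blue lines of libraries with DNA-PKcs at short deletions, with medians of 20 to 47 bp against 3 to 6 bp at the bait end.

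The deletions at the ends of a join were only loosely related. Across the 1709 joins of DNA-PKcs -/- libraries the Spearman correlation of bait and partner deletion was 0.447, and within single libraries it lay between 0.198 and 0.543. Across the 324 joins of libraries with DNA-PKcs it was 0.183, and within libraries it lay between -0.130 and 0.560. Joins of a library share culture, sequence and depth, so these values are descriptive.

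Within the DNA-PKcs -/- libraries, joins with 3 bp of homology had a longer median bait deletion than joins with 1 bp in 6 of 6. These medians were 50.5 bp at 3 bp and 41 bp at 1 bp in the double-mutant G1 library, and 64.5 and 45 bp in the DNA-PKcs -/- G1 library. At the partner end the 3 bp median was longer in 3 of the 6 libraries, equal in 1 and shorter in 2, namely both G2 replicate 2 libraries, at 9 against 16 bp in the double mutant and 11 against 17.5 bp in DNA-PKcs -/- cells. With DNA-PKcs the pooled medians for 1, 2 and 3 bp were 4, 5 and 6 bp at the bait end and 10, 8 and 7 bp at the partner end. Joins with 3 bp numbered only 10 to 52 per DNA-PKcs -/- library, and none of this was tested.

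In some homology joins an alignment runs past a coding end into a heptamer. Of the 2033 joins, 255 reach into a heptamer: 187 into the bait heptamer, 77 into the partner heptamer, with 9 of these counted in both. The other 1778 have both ends on the coding side. On the bait side 139 joins reach by 1 or 2 bases, the range in which signal bases and P nucleotides have the same letters, and 48 by 3 bases or more. On the partner side the counts are 51 and 26. The longest reach was 15 bases on the bait side, which passes the heptamer, and 6 on the partner side.

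Reach into a heptamer was less frequent in DNA-PKcs -/- libraries. It was found in 7.18%, 11.2% and 12.9% of homology joins in the double mutant and in 5.68%, 7.92% and 16.9% in DNA-PKcs -/- cells. It was found in 30.2%, 34.3% and 26.7% in CtIP A/A cells and in 26.4%, 38.3% and 39.1% in WT cells. The highest value without DNA-PKcs, 16.9%, was below the lowest with it. The difference was -22.1 points (interval -27.2 to -17.6; adjusted p = 0.0154, exact permutation), with -16.3 points at the bait heptamer and -6.77 points at the partner heptamer, each with the same adjusted p. In counts, 156 of 1709 joins reached a heptamer without DNA-PKcs and 99 of 324 with it. The order is not particular to homology joins. Pooled, 3.10% of direct joins reached a heptamer without DNA-PKcs and 28.4% with it. For joins with inserted bases the values were 25.3% and 37.2% (neither tested).

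**Figure D4:**
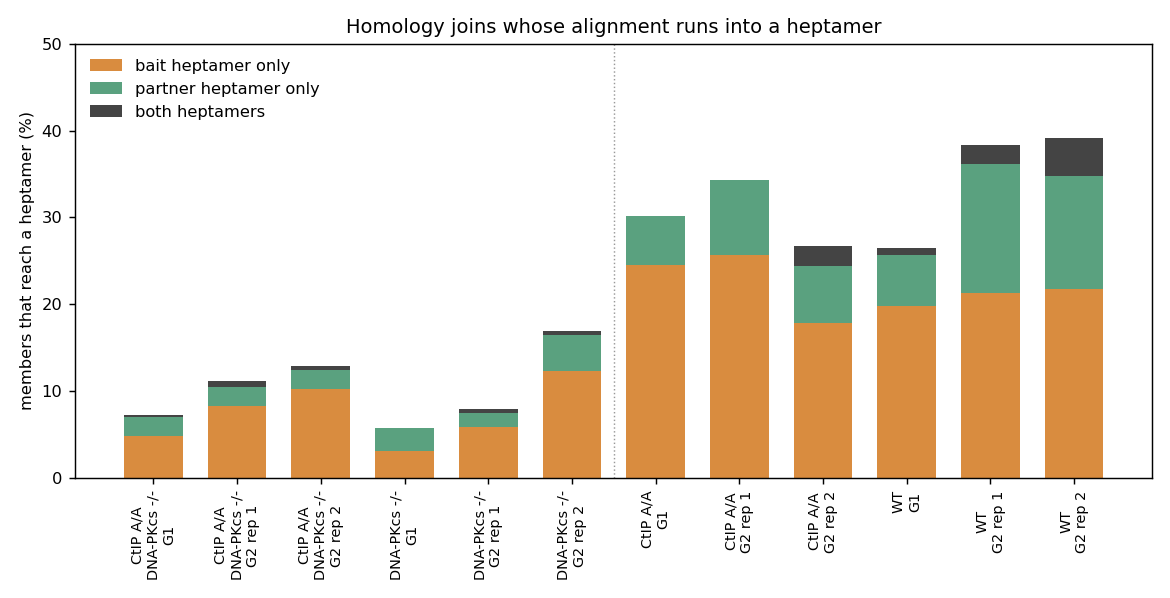
Homology joins whose bait or prey alignment runs into a heptamer, in percent of the homology joins of each library, split by bait only, partner only and both heptamers. The dotted line separates the 6 DNA-PKcs -/- libraries (5.68% to 16.9%) from the 6 libraries with DNA-PKcs (26.4% to 39.1%).

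When the heptamer bases were trimmed from the alignments, 38 of the 255 joins kept 1 bp or more of homology. Another 129 became direct joins and 88 had a gap of unmatched bases. In the 38 and the 129, alignments to coding bases alone cover the read at the join. Reach into a heptamer does not show there that heptamer bases were kept. Homology on the coding side was left in 92.1% of the class without DNA-PKcs and 73.3% with it as stratum means, a difference of 18.8 points (14.0 to 25.3; adjusted p = 0.0154, exact permutation). The 1778 joins with both ends on the coding side keep their homology by definition, out of 1816 that kept any. This measure therefore mostly restates reach into a heptamer and is not separate support. Counted on coding bases alone, the class took 34.3% of coding joins in DNA-PKcs -/- libraries and 10.6% in the others.

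An end with a measured deletion of 0 bp was present in 10.7% of homology joins without DNA-PKcs and in 38.0% with it. The difference was -27.2 points (-31.6 to -20.7, adjusted p = 0.0154, exact permutation). Shared bases count toward both ends, so the measured deletion is the smallest possible loss. Every join that reaches a heptamer has an end with a measured deletion of 0 bp by definition. Without those joins the difference was -7.88 points (adjusted p = 0.0167, exact permutation). Both ends had a measured deletion of 0 bp in 9 homology joins without DNA-PKcs and 11 with it.

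The matched bases were most often a lone C. C made up 28.0% ± 1.49 of homologies in DNA-PKcs -/- libraries and 28.1% ± 5.54 in libraries with DNA-PKcs (SD, n = 6 each). T made up 11.8% ± 2.08 and 13.02% ± 2.37, G 13.4% ± 1.41 and 10.0% ± 3.74, and A 10.6% ± 1.93 and 9.19% ± 3.94. In these 4 the groups overlap. Of 62 distinct homologies, CC was the most frequent of 2 bp by joins, with 112 joins without DNA-PKcs and 2 with it, or 6.08% ± 1.46 and 0.508% ± 0.902. GC, the homology of the 1942 to 2815 join above, had 43 and 13 joins, or 2.79% ± 1.19 and 4.52% ± 1.39, and led CC only in the mean share that weights the 12 unequal libraries alike. The rest of the 10 most used were AA, TG, CT and GT. G and C made up 62.3% of homology bases without DNA-PKcs and 54.2% with it. That difference of 8.06 points did not pass the threshold (interval -0.956 to 12.6; p = 0.0694, adjusted p = 0.0694, exact permutation), and it did pass without the WT G2 replicate 2 library, at 9.23 points (adjusted p = 0.0154).

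A run of 10 C bases in the partner coding sequence, at positions 2828 to 2837 or 15 to 24 bp into it, was a frequent place of joining. The prey position of 352 homology joins fell in the run, and 335 of these had only C in their homology. The run took 18.2% ± 1.77 of homology joins in DNA-PKcs -/- libraries and 8.89% ± 6.11 in libraries with DNA-PKcs. Direct joins used it as well, at 24.8% ± 5.10 and 6.94% ± 5.12 (SD, n = 6 each, not tested). In homology joins the shared C bases can come from either side, so the partner end is placed only to within the homology. With the run left out, a choice made after seeing the data, the median partner deletion differed by 21.8 bp between DNA-PKcs groups (adjusted p = 0.0154, exact permutation) and the GC difference was 4.68 points (adjusted p = 0.250).

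Setting CtIP A/A libraries against those with wild-type CtIP asks whether the phosphorylation site of CtIP bears on how these joins are made. After adjustment 0 of the 10 measures passed, and 0 had an unadjusted p under 0.05 (lowest p = 0.0694, adjusted p of 0.602 or above, exact permutation). Homology joins made up 24.5% of coding joins in CtIP A/A libraries and 27.0% in CtIP wild-type libraries as stratum means. The median bait deletion averaged 17.7 bp in CtIP A/A libraries and 21.6 bp in the wild-type ones, a difference of -3.94 bp (interval -10.7 to 3.25). The median partner deletion was 16.6 bp and 16.1 bp, a difference of 0.438 bp (-3.50 to 4.67). Bait deletions over 20 bp differed by -0.947 points (-13.3 to 10.8), partner deletions over 20 bp by 3.17 points (-6.75 to 17.3) and reach into a heptamer by -0.839 points (-9.08 to 3.74). The lowest p belonged to reach into the partner heptamer, found in 4.91% of homology joins in CtIP A/A libraries and 7.43% in the wild-type ones (difference -2.53 points, -8.48 to 0.174). For the medians and for deletions over 20 bp the intervals leave room for differences of several bp or points in either direction. The CtIP difference did not differ detectably between DNA-PKcs backgrounds in any of the 10 measures (lowest p = 0.139, exact permutation).

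Setting G2 against G1 asks whether the phase of arrest bears on these joins. No measure passed after adjustment, and 2 of 10 had an unadjusted p under 0.05. The median partner deletion averaged 13.4 bp for G2 libraries and 19.2 bp for G1 libraries as means over the 4 genotypes, a difference of -5.81 bp (interval -10.7 to -1.29; p = 0.0247, adjusted p = 0.137, exact permutation). Reach into the partner heptamer was 8.02% in G2 and 4.31% in G1, a difference of 3.71 points (0.294 to 7.20; p = 0.0370, adjusted p = 0.137, exact permutation). Both kept their direction in all 4 genotypes. Of the homology joins in G2, 37.1% had lost over 20 bp at the bait end, against 47.5% in G1 (difference -10.4 points, -24.3 to 3.55; adjusted p = 0.137, exact permutation). The G1 libraries are the deeper ones in every genotype, there is 1 of them per genotype, and the part of depth in these differences was not tested. All G1 libraries were in sequencing run 2 and the first G2 replicates in run 1, so phase is partly mixed with run. Homology joins made up 26.3% of coding joins in G2 and 25.2% in G1. Across the 3 sets of interaction tests, over 10 measures each, no p was under 0.05 (exact permutation).

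Set against direct joins of the same library, homology joins had lost more at both ends. Bait deletions over 20 bp made up 40.6% ± 24.7 of homology joins and 31.7% ± 23.9 of direct joins (SD, n = 12), higher in 12 of 12 libraries by 8.87 points on average (adjusted p = 0.00586 over 12 tests, exact sign-flip permutation). Partner deletions over 20 bp made up 35.5% ± 19.0 and 28.3% ± 18.8, higher in 10 of 12 libraries by 7.15 points (adjusted p = 0.0166, exact sign flips). Median deletions were longer by 4.46 bp at the bait end and 3.25 bp at the partner end (adjusted p = 0.0117 and 0.00879, exact sign flips). An overlap counts toward both alignments, so at equal total loss a homology join has the shorter measured deletions by construction. Within the 6 libraries with DNA-PKcs alone, 0 of these 4 differences passed (adjusted p of 0.0750 to 0.417, exact sign flips, where 6 libraries allow a smallest p of 0.0312 before adjustment).

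Reach into a heptamer made up 21.4% ± 12.5 of homology joins and 17.2% ± 15.2 of direct joins, a difference of 4.16 points in 9 of 12 libraries (adjusted p = 0.0368, exact sign flips). It lost the threshold when any of 9 libraries was left out (3.28 to 4.94 points over all 12 omissions). Shared bases count toward both alignments, so longer homology carries the alignments further toward a heptamer by construction. Tests of reach between these classes cannot separate that from a difference in the joins. Homology joins of 1 to 3 bp reached a heptamer less often than joins with 4 bp or more, of which 45.9% ± 34.1 did (difference -24.5 points, lower in 11 of 12 libraries, adjusted p = 0.0117, exact sign flips). The longer class includes the direct ligations of complete ends described above. In DNA-PKcs -/- libraries alone the difference was -4.45 points (adjusted p = 0.281, exact sign flips), and in libraries with DNA-PKcs alone -44.5 points (adjusted p = 0.0750). Against the longer class the median deletions differed by -0.292 bp at the bait end and -0.917 bp at the partner end, and partner deletions over 20 bp by -4.70 points (adjusted p = 0.955, 0.955 and 0.287, exact sign flips). With joins that reach a heptamer left out, which removes joins with an undeleted end and a larger share of the longer class, the median partner deletion differed by -14.3 bp (adjusted p = 0.00293, exact sign flips).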

How the data were processed

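Per the labels' protocols, sonicated genomic DNA was amplified with a bait primer, germline substrate was removed with BstBI, and the substrate was added to mm10 as a further chromosome. The aligner named in the submitters' processing notes is Bowtie2, with mm10 as the build. Not given in the sources used here are its version, the junction caller and how duplicates were treated. The deposited values are, per the file headers, base positions of bait and prey on reference and read, with 1 junction per line and no normalization.

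All library values were calculated in Python 3.11.15 (pandas 2.3.3, numpy 2.4.6, scipy 1.17.1) and drawn using matplotlib 3.10.9. Homology is the overlap of both alignments on the read, and its letters matched both sides in 2022 of 2033 joins. Deletions are counted from the first coding bases, 1943 on the bait and 2813 on the partner side, and an end inside a heptamer counts as 0 bp. DNA-PKcs and CtIP labels were permuted within 4 strata of the other genotype and phase (144 arrangements), phase within 4 genotypes (81 arrangements). Tests were two-sided and exact, Benjamini-Hochberg adjusted over 10 measures with a threshold of 0.05, and intervals came from inverting the test. Members were set against other joins by sign flips over 12 libraries. The test code was tested on simulated data. The joins to be described, the measures and the rule for naming junctions and homologies (the 10 of each with the highest mean share) were chosen with earlier results of these data known. The 6 I-PpoI samples are not analysed here.

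Read names place the first G2 replicates in sequencing run 1 and all other libraries in run 2. In G2 the replicate number is therefore also the sequencing run. No label states any other pairing. Correlations of replicate deviations between genotypes lay between -0.833 and 0.616, with 3 of 6 above 0.1. Alternatives changed the prey window, alignment filters, repeated lines, homology limits, heptamer joins, the scale and the libraries.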

Additional observations from a re-analysis of the deposited data

How the results depend on the processing

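Depth is a limit: the libraries hold 23 to 543 homology joins. Nearly all lines are distinct joins, so shares need not measure how often a join formed. The 9 measures that separated DNA-PKcs groups kept their direction and stayed past the threshold under every alternative that gave a test, with adjusted p up to 0.0417. The replicate block, a fit by replicate number, which in G2 is also the sequencing run, left every call of the DNA-PKcs and CtIP comparisons as it was (heptamer reach -22.1 points, adjusted p = 0.0347, exact permutation). No paired fit exists for G2 against G1. Within sequencing runs there is no test. In run 1 the DNA-PKcs difference moved to -26.7 points for heptamer reach, -10.3 for the partner heptamer and 24.9 for coding-side homology, and the CtIP difference to -3.77 points for the partner heptamer. In run 2 the DNA-PKcs differences for these measures were -19.9, -6.58 and 16.3 points. The causes of the changes listed here were not tested, except where fewer libraries remained.

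The DNA-PKcs difference in GC of homology bases passed with short prey alignments left out (8.30 points, adjusted p = 0.0417), with partner deletions up to 100 bp (8.45, 0.0417), with homology of 2 to 3 bp (11.3, 0.0154) and with 1 to 4 bp (7.96, 0.0139), and ran from 6.17 to 9.23 points with a library left out (all exact permutation). Without the CtIP A/A G2 replicate 2 library, 4 G2 minus G1 differences passed at adjusted p = 0.0463 (exact permutation): heptamer reach 6.99 points, coding-side homology -7.08 points, median partner deletion -5.94 bp and an undeleted end 6.0 points. Over all omissions these ran from 3.96 to 7.95, from -7.08 to -4.06, from -7.58 to -3.33 and from 3.64 to 6.62. Trimmed to coding bases, the homology share of coding joins with DNA-PKcs was 10.6%.

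Against direct joins, heptamer reach fell short of the threshold with repeated lines counted a single time (3.53 points, adjusted p = 0.118, exact sign flips) and lay between 3.28 and 4.94 points with a library left out. It fell short without any 1 of the 6 DNA-PKcs -/- libraries (3.28 to 4.26 points), without the CtIP A/A G1 or G2 replicate 1 library (3.88 and 3.69) and without the WT G1 library (4.33). Partner deletions over 20 bp fell short with only those up to 100 bp kept (5.64 points, 0.0628), and the median bait deletion without the C run (2.54 bp, 0.0804). An undeleted end passed without heptamer joins (-5.72 points, 0.00469) and with trimming (-14.4 points, 0.00117), and turned to 5.63 points in DNA-PKcs -/- libraries alone (0.0417). With DNA-PKcs alone the values were 1.72 points for heptamer reach, 0.667 and 2.75 bp for median bait and partner deletion, and 8.49 and 6.94 points for bait and partner deletions over 20 bp (adjusted p 0.0750 to 0.545), in fewer libraries.

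Against joins with 4 bp or more, median bait and partner deletion (-0.292 and -0.917 bp) and partner deletions over 20 bp (-4.70 points) did not pass. Leaving out heptamer joins drops many undeleted ends and a larger share of the longer class, so it cannot test a class difference. It turned an undeleted end to 3.59 points (adjusted p = 0.0867, exact sign flips). The measures above were -14.6 and -14.3 bp and -30.7 points, past the threshold. Trimming gave -13.7 and -13.2 bp and -21.5 points, past it, and -4.20 points for an undeleted end (0.747). In DNA-PKcs -/- libraries alone, median partner deletion (-8.67 bp) and bait and partner deletions over 20 bp (-6.10 and -10.9 points) passed, while heptamer reach (-4.45 points) and an undeleted end (-5.24 points) did not. With DNA-PKcs alone heptamer reach was -44.5 and an undeleted end -38.4 points (adjusted p = 0.0750 each, exact sign flips over 6 libraries). Partner deletions over 20 bp ran from -7.21 to -3.18 points with a library left out and passed at -7.21 without the CtIP A/A G2 replicate 1 library (adjusted p = 0.0318, exact sign flips).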
